A study of Mus musculus with 36 samples.

Results

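Replication-dependent histone genes encode the core histones H2A, H2B, H3 and H4 and the linker histone H1, which package newly copied DNA. The genes lie in clusters, are transcribed mainly in S phase, and make mRNAs that usually end in a stem-loop bound by stem-loop binding protein in place of a poly(A) tail. Libraries made from poly(A)-selected RNA miss most of these transcripts, and total RNA libraries hold them. Long-term hematopoietic stem cells (LT-HSC) of the BM are mostly quiescent, and the multipotent progenitors below them divide more often. Members were the protein-coding genes whose GENCODE vM21 symbol begins with Hist1h, Hist2h, Hist3h or Hist4. The annotation holds 67 such genes, and 59 of them had a row among the 38887 genes of the deposited table, namely 6 H1, 18 H2A, 15 H2B, 7 H3 and 13 H4 genes. Of these, 47 lie on chromosome 13, 9 on chromosome 3, 2 on chromosome 11 and 1 on chromosome 6 of GRCm38. The other 8, *Hist1h3h*, *Hist1h2bm*, *Hist1h3i*, *Hist1h3g*, *Hist1h2bh*, *Hist1h3f*, *Hist1h3d* and *Hist2h2bb*, had no matched row and were not analyzed.

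RNA was measured in LT-HSC, sorted as CD150+CD48- cells, and in HPC-1, a multipotent progenitor population sorted as CD150-CD48+ cells (ST-HSC in the labels), both from the Lin-Sca-1+c-Kit+ fraction of BM. All mice lacked *Apoe*, and they carried both alleles of the IL-27 receptor gene (*Apoe*-/-), 1 allele (*Apoe*-/-*Il27ra*+/-) or none (*Apoe*-/-*Il27ra*-/-), on a C57BL/6 background by the study's methods. They were infused with Ang II, or with PBS as the control, for 2 weeks, and the methods add a Western diet (WD) that the labels do not mention. The labels give neither age nor sex, and they do not say whether cells of several mice were pooled. Each library came from 5000 sorted cells. Of the 36 libraries, 17 were LT-HSC (under PBS 1 *Apoe*-/-, 3 *Apoe*-/-*Il27ra*+/- and 3 *Apoe*-/-*Il27ra*-/-, under Ang II 2, 4 and 4) and 19 were HPC-1 (under PBS 2, 3 and 3, under Ang II 3, 4 and 4). Total counts ran from 1980283 to 6861078 with a median of 3139364, and 25 libraries held under 4 M counts. Levels are given in CPM, the counts per M counts of a library after TMM normalization, and single genes are ranked by level only per kb of exon. The test was edgeR's quasi-likelihood test over all genes that passed a low-count filter, with p adjusted by the method of Benjamini and Hochberg and called under 0.05. Of the 59 members, 57 passed the filter in the model of both cell types, 56 in the model of LT-HSC and 55 in that of HPC-1. Over 3 counts were present in every library for 49 members. The p-values measure spread between samples, since the labels do not state that replicates were separate animals.

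*Slamf1*, *Cd48* and *Mecom* separated LT-HSC from HPC-1 libraries, with 2 libraries that stood apart. *Slamf1*, which encodes CD150, ran from 21.9 to 73.7 CPM in 15 LT-HSC libraries and from 0 to 8.23 in the 19 HPC-1 libraries. *Cd48* ran from 0 to 4.15 and from 44.0 to 85.5 CPM in the same libraries, and *Mecom*, a stem cell transcription factor, from 195 to 374 and from 5.2 to 61.4. The other gate genes overlapped in the same libraries, *Kit* at 694 to 1210 and 539 to 1050 CPM and *Ly6a*, which encodes Sca-1, at 6.74 to 28.9 and 1.18 to 14.6. The library labelled LT-HSC PBS *Apoe*-/-*Il27ra*-/- replicate 2 went against its label. It held 2.36 CPM of *Slamf1*, 62.5 of *Cd48*, 31 of *Mecom* and 3520 of *Mpo*, the myeloperoxidase of granulocyte and monocyte progenitors. The library labelled LT-HSC Ang II *Apoe*-/-*Il27ra*-/- replicate 2 stood apart in another way, with 20.7 CPM of *Slamf1*, 8.18 of *Cd48*, 151 of *Mecom* and 1110 of *Mpo*. Its 7 granulocyte markers summed to 7007 CPM and its 7 erythroid markers to 2682, against highest values of 1241 and 2944 in the other 15 LT-HSC libraries, both in the library labelled LT-HSC PBS *Apoe*-/-*Il27ra*-/- replicate 3. The summed level of members and their number called between the cell types are also given without these 2 libraries numbered 2, which stood apart in their markers. That alternative was chosen after seeing the data, the levels of members included. The 2 also held the highest summed levels of members among the LT-HSC libraries, 13760 and 14070 CPM, so that leaving them out lowers the LT-HSC level by itself.

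In all 8 *Apoe*-/- libraries transcripts of intestinal epithelium summed higher than in the other libraries of the same cell type. The 20 intestinal markers summed to 382.6, 590.4 and 606.4 CPM in the 3 *Apoe*-/- LT-HSC libraries and to 114.8, 99.06, 137.0, 118.5 and 374.6 CPM in the 5 *Apoe*-/- HPC-1 libraries. In other libraries the sum ran from 35.39 to 128.6 CPM in LT-HSC and from 36.77 to 94.59 in HPC-1. *Dmbt1*, which encodes a mucosal glycoprotein, ran from 8.05 to 193 CPM in the *Apoe*-/- libraries and was over 0 in 9 of the other 28, and *Muc2*, the gel-forming mucin of goblet cells, was over 0 in 8 of 8 and in 3 of 28. Not every marker followed. *Krt18* was present in every library, with medians of 37.4 CPM in the 8 and 48.9 in the 28, *Lgr5* was over 0 in 4 of 8 and 24 of 28, *Cldn7* in 5 of 8 and 18 of 28, and *Phgr1* had a median of 0 in both. Between the cell types edgeR called none of 19 tested intestinal markers higher and 5 lower in HPC-1, with a median log2 fold change of −0.04. The SEs of *Agr2*, *Krt19*, *Krt20*, *Muc2*, *Fabp2*, *Tff3* and *Reg3b* could not be estimated. The part of these transcripts in comparisons with *Apoe*-/- mice was not tested.

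Y-linked genes divided the libraries in a way the labels do not give. The 4 Y-linked genes summed to between 177.7 and 329.4 CPM in 24 libraries and to between 0 and 0.3136 CPM in 12. The 12 were 8 LT-HSC and 4 HPC-1 libraries, all *Apoe*-/-*Il27ra*+/- or *Apoe*-/-*Il27ra*-/-, and their totals ran from 2560838 to 6861078 counts, against 1980283 to 3722262 in the 24. The study's methods name sex as a factor in its own model. Sex, depth and any other property that these libraries share cannot be told apart. Between the cell types none of the 4 Y-linked genes was called in either direction (median log2 fold change 0.84).

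Members made up 0.431% to 1.45% of the counts of a library. Summed over the 59 members, the level ran from 4002 to 14070 CPM in LT-HSC with a median of 6436 (mean 7489, SD 3280, n = 17), and from 7894 to 15280 CPM in HPC-1 with a median of 11100 (mean 11230, SD 2190, n = 19). Without the 2 libraries numbered 2, LT-HSC ran from 4002 to 13000 CPM with a median of 6270 (mean 6633, SD 2370, n = 15). The ranges of the cell types still overlapped, with 3 of these 15 libraries, at 13000, 9513 and 8398 CPM, above the lowest HPC-1 library. The highest, LT-HSC PBS *Apoe*-/-*Il27ra*+/- replicate 1, had LT-HSC values of the gate genes, 31.5 CPM of *Slamf1* and 0.485 of *Cd48*. All 5 classes had a higher mean in HPC-1. H1 linker histones summed to a mean of 2085 CPM in LT-HSC and 2878 in HPC-1, and H2A to 3007 and 4783. H2B, the partner of H2A, summed to 897.6 and 1432, H3 to 591.1 and 838.6, and H4, the partner of H3, to 908.8 and 1297. Without the 2 libraries the LT-HSC means were 1857 CPM for H1, 2664 for H2A, 797.1 for H2B, 500.9 for H3 and 813.4 for H4.

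**Figure D1:**
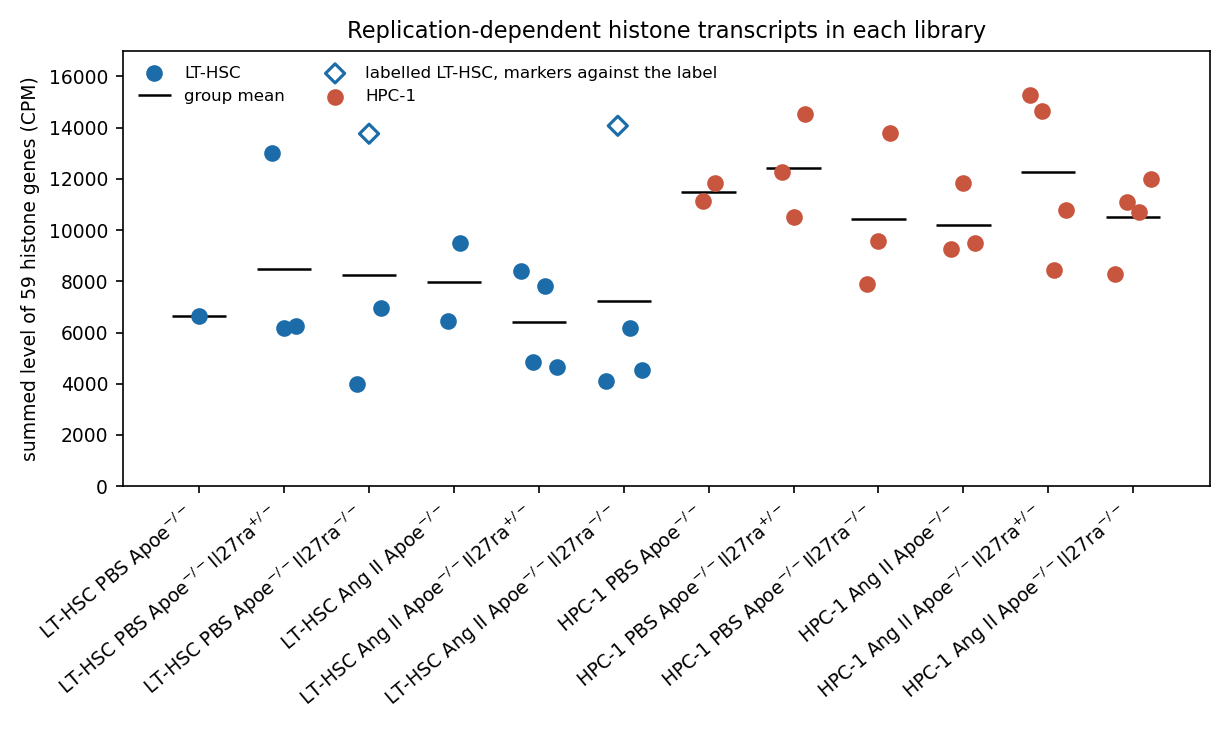
Summed level of the 59 member genes in each library, in CPM (vertical axis), by group of cell type, agent and genotype (horizontal axis), with 1 point per library, a black bar for the group mean, and hollow diamonds for the 2 LT-HSC libraries labelled replicate 2 that stood apart. The HPC-1 libraries lie between 7894 and 15280 CPM, and the 15 other LT-HSC libraries between 4002 and 13000.

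Per kb of exon, H2A genes were the most abundant members. Values are means over all 36 libraries, and the length is that of the annotated exons, so that ranks rest on the annotated ends too. *Hist1h1c* has 1560 such bases, 840 of them after the stem-loop, and *Hist1h1e* 1930 and 1153. *Hist1h1d* has 7425 and 4884 and had 556.4 CPM but 74.93 CPM per kb. *Hist1h1a* has 741, with no stem-loop found. Ranks by length up to the stem-loop were not computed. *Hist2h2aa1*, an H2A gene of the chromosome 3 cluster, had a mean of 1713 CPM per kb and made up 10.6% of the summed member level, followed in its class by *Hist1h2ao* (1028 CPM per kb) and *Hist1h2ab* (947.2). The leading H2B genes were *Hist1h2bk* (541.5 CPM per kb), *Hist1h2bb* (372.3) and *Hist1h2bn* (328.3). Among linker histones *Hist1h1c* (438.8 CPM per kb) and *Hist1h1a* (435.3) led, with *Hist1h1e* at 364.3, and their order depended on the libraries. *Hist1h1c* had 422.7 CPM per kb in LT-HSC against 304.7 for *Hist1h1a*, and 453.2 in HPC-1 against 552.2. *Hist1h1a* was also first in the 24 libraries with Y-linked counts, and *Hist1h1c* in the 12 without. The leading H4 genes were *Hist1h4h* (327.5 CPM per kb), *Hist1h4k* (276.4) and *Hist1h4d* (260.8), and the leading H3 genes *Hist2h3b* (324.1), *Hist1h3b* (304.1) and *Hist1h3e* (142.4). Orders in H2A, H3 and H4 depended on the libraries too. In LT-HSC *Hist1h4d* (223.9) lay above *Hist1h4k* (205.4). In the 12 libraries *Hist1h3b* (432.6) lay above *Hist2h3b* (402.3) and *Hist1h2ab* (791.8) above *Hist1h2ao* (769.4). In the 24 *Hist2h3c2* (113.3) lay above *Hist1h3e* (113.1). At the other end, named after their values were seen, lay *Hist1h1t*, the testis linker histone, with 0.4017 CPM per kb, *Hist2h3c1* with 0.2536, *Hist1h2ba* with 0.05357 and *Hist1h2aa* with 0.03068. The last 2 had 3 counts and 1 count in all 36 libraries together. *Hist2h3c1* had over 3 counts in 2 libraries. Its highest value was 14.95 CPM in HPC-1 and 1.711 in LT-HSC, and its median was 0 in both. A count of 0 in a library allows up to 3 counts, and this floor covers counting error only. Members share sequence: 25 of the 59 share over 50% of their 75-base windows with another histone gene and 7 share none, so that the values of near copies rest on how RSEM divided reads between them. All windows of *Hist2h2aa2* also occur in *Hist2h2aa1*, for instance, and these genes had means of 63.61 and 1713 CPM per kb. *Hist1h2aj*, annotated as a pseudogene and therefore not a member, had a mean of 240.88 CPM.

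Which members differ between HPC-1 and LT-HSC was asked over the 5 combinations of agent and genotype in which both cell types had at least 2 libraries. In HPC-1 25 of 57 tested members were higher and 0 were lower, where 18.4% of all 18013 genes tested were higher and 17.9% lower. The median log2 fold change was 0.59 over the members and −0.03 over all genes. By class 2 of 6 H1, 7 of 17 H2A, 7 of 14 H2B, 2 of 7 H3 and 7 of 13 H4 genes were higher. The fold change was positive for 53 members and negative for 4. At an unadjusted p under 0.05, edgeR found 34 higher and 1 lower, and after adjustment DESeq2 called 27 higher and 1 lower and limma-voom 35 higher and 1 lower. Of all 18013 genes 7786 passed the unadjusted threshold in either direction. Shares of all genes are not given for DESeq2 and limma-voom, here or in other comparisons. In bulk samples fewer cells that make a transcript and less of it per cell cannot be told apart. Without the 2 LT-HSC libraries numbered 2, 42 members were higher and 0 lower, all 25 among them, and the median was 0.79, where 3522 of 17945 genes were higher and 3350 lower. By class these were 4 H1, 14 H2A, 9 H2B, 6 H3 and 9 H4 genes. Counts of all genes with 1 library left out are not given, here or in other comparisons. Changes in the number of members called then cannot be set against those of all genes. Leaving out 1 library moved the count of 25 by over 1.5 times in 6 cases. It was 13 without LT-HSC Ang II *Apoe*-/- replicate 1, 15 without LT-HSC PBS *Apoe*-/-*Il27ra*+/- replicate 3, 15 without HPC-1 PBS *Apoe*-/-*Il27ra*+/- replicate 1 and 15 without its replicate 3, 14 without HPC-1 PBS *Apoe*-/-*Il27ra*-/- replicate 3, and 16 without HPC-1 Ang II *Apoe*-/- replicate 2. The highest such count was 35, without LT-HSC PBS *Apoe*-/-*Il27ra*-/- replicate 2, and 1 member was lower without HPC-1 Ang II *Apoe*-/-*Il27ra*+/- replicate 4.

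Of 6 linker histone genes tested 2 were called higher, and the median log2 fold change of the class was 0.42. *Hist1h1b*, which encodes H1.5, ran from 56.52 to 397.7 CPM in LT-HSC with a median of 134.5, and from 160.7 to 463.2 in HPC-1 with a median of 303.5. Its log2 fold change was 1.07 (SE 0.266, edgeR adjusted p = 0.00217). *Hist1h1a*, which encodes H1.1, ran from 125.7 to 539.8 CPM in LT-HSC (median 201.9) and from 305.2 to 549.5 in HPC-1 (median 394.2), with a log2 fold change of 0.88 (SE 0.188, edgeR adjusted p = 0.000499). The LT-HSC libraries labelled replicate 2 of *Apoe*-/-*Il27ra*-/- gave the highest values of both genes. Without them the highest LT-HSC value of *Hist1h1a* was 294.1 CPM, so that the 15 libraries lay under all 19 HPC-1 libraries, and that of *Hist1h1b* was 203.5 CPM, which still overlapped. The log2 fold changes were then 1.15 (SE 0.116, edgeR adjusted p = 8.69e-10) for *Hist1h1a* and 1.44 (SE 0.202, edgeR adjusted p = 3.22e-06) for *Hist1h1b*. *Hist1h1c*, which encodes H1.2, had much the same range in both cell types, 319.1 to 1150 CPM in LT-HSC (median 646.8) and 329.6 to 1084 in HPC-1 (median 648.7). Its log2 fold change was 0.06 (SE 0.173, edgeR adjusted p = 0.932), and 0.20 (SE 0.162, edgeR adjusted p = 0.389) without the 2 libraries. With DESeq2 size factors it was −0.01. *Hist1h1e*, which encodes H1.4, had medians of 502.1 CPM in LT-HSC and 757.3 in HPC-1. It was not called with all libraries (log2 fold change 0.47, SE 0.193, edgeR adjusted p = 0.0587), and without the 2 it was (0.65, SE 0.158, edgeR adjusted p = 0.00169).

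H2A and H2B pair in the nucleosome, and their genes often share a promoter region, head to head. *Hist1h2bf*, an H2B gene, had the smallest adjusted p of all members. It ran from 14.04 to 62.89 CPM in LT-HSC (median 26.14) and from 32.92 to 82.28 in HPC-1 (median 58.05), with a log2 fold change of 0.95 (SE 0.194, edgeR adjusted p = 0.000202). *Hist1h2an*, an H2A gene, ran from 23.61 to 120.2 CPM in LT-HSC (median 38.98) and from 74.49 to 196.4 in HPC-1 (median 102.4), with a log2 fold change of 1.05 (SE 0.243, edgeR adjusted p = 0.00115). The upper LT-HSC values of both genes reached into the HPC-1 range, also without the 2 libraries numbered 2, when the highest were 53.39 and 88.56 CPM. The other H2B genes among the 10 with the smallest adjusted p were *Hist1h2bc*, *Hist1h2bg* and *Hist1h2bk*, with log2 fold changes of 0.71, 0.63 and 0.79. The other H2A genes were *Hist1h2ag*, *Hist1h2ah* and *Hist2h2ac*, with 0.75, 0.83 and 0.78. Median levels of *Hist2h2ac* were 131.2 CPM in LT-HSC and 328.2 in HPC-1. *Hist2h2aa1*, the most abundant member per kb, ran from 246.4 to 1765 CPM in LT-HSC (median 450.8) and from 697.9 to 2353 in HPC-1 (median 1094). It was not called with all libraries (log2 fold change 0.66, SE 0.278, edgeR adjusted p = 0.0686) and was without the 2 (0.95, SE 0.238, edgeR adjusted p = 0.00241).

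H3 and H4 also pair. *Hist1h4k*, *Hist1h4h* and *Hist1h4d* had log2 fold changes of 0.66 (SE 0.221, edgeR adjusted p = 0.0213), 0.59 (SE 0.209, edgeR adjusted p = 0.0284) and 0.45 (SE 0.163, edgeR adjusted p = 0.0306). Of 47 alternatives, 5, 12 and 17 in that order lost the call. *Hist1h4d* ran from 131.3 to 472.2 CPM in LT-HSC (median 224.9) and from 246.3 to 537.1 in HPC-1 (median 308.7). The 3 leading H3 genes were not called with all libraries: *Hist2h3b*, *Hist1h3e* and *Hist1h3b* had log2 fold changes of 0.60, 0.54 and 0.55, and edgeR adjusted p-values of 0.0524, 0.0894 and 0.138 in that order. Without the 2 libraries numbered 2 all 3 were called, with 0.84, 0.70 and 0.79 and edgeR adjusted p-values of 0.00234, 0.0258 and 0.0209. *Hist1h3b* had medians of 149.7 CPM in LT-HSC and 178.6 in HPC-1. The remaining leading genes of H2A and H2B, *Hist1h2ab*, *Hist1h2ao* and *Hist1h2bb*, were higher in HPC-1 with log2 fold changes of 0.64, 0.62 and 0.62, and lost the call in 18, 4 and 9 of 47 alternatives, while *Hist1h2bn* had 0.50 and an edgeR adjusted p of 0.0574, and 0.72 and 0.00145 without the 2 libraries. The 4 negative values, named after they were seen, belonged to genes of low level: *Hist3h2ba* (−1.06, SE 0.504, edgeR adjusted p = 0.0995), *Hist1h2bq* (−0.84), *Hist2h2be* (−0.37) and *Hist1h1t* (−0.36). *Hist3h2ba*, an H2B gene outside the large cluster, had medians of 2.95 CPM in LT-HSC and 1.152 in HPC-1.

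**Figure D2:**
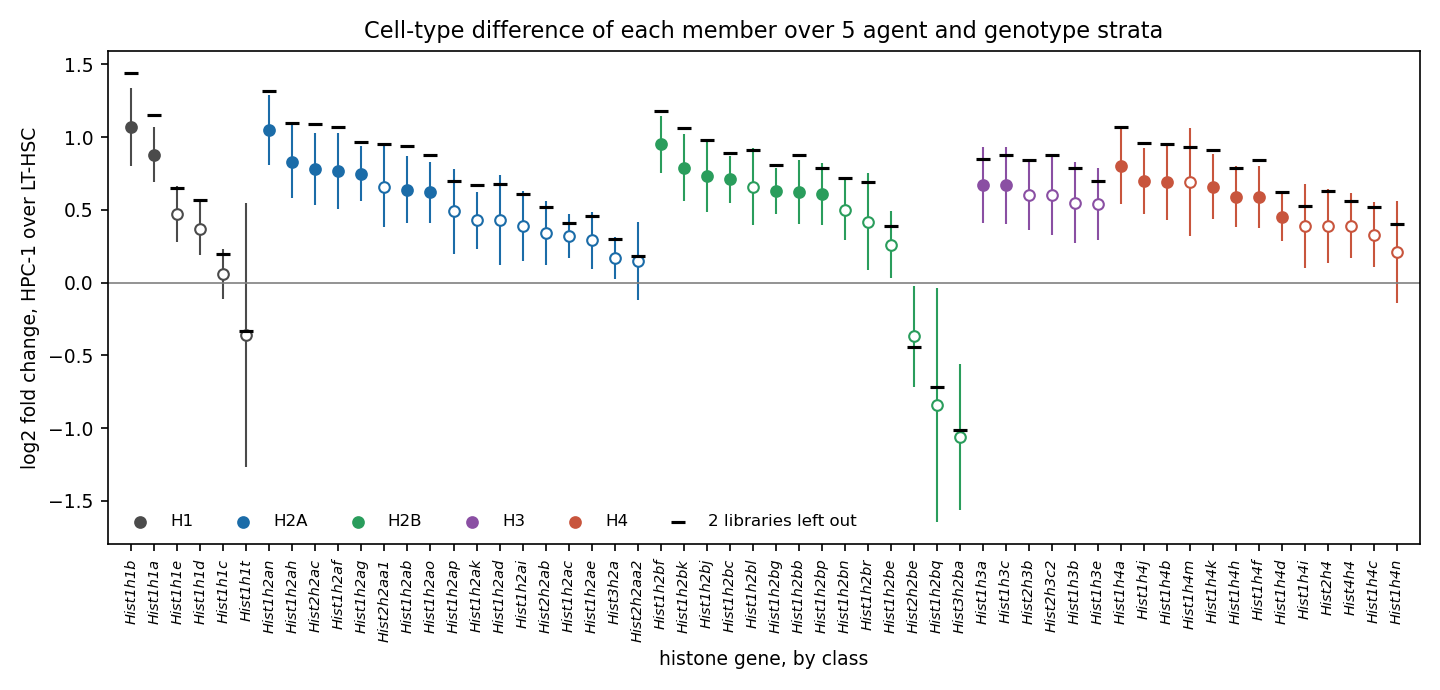
Log2 fold change in HPC-1 against LT-HSC over 5 combinations of agent and genotype (vertical axis) of 56 members, by class (horizontal axis). Each point has its SE as a bar and is filled where the edgeR adjusted p was under 0.05. A black dash gives the value without the 2 LT-HSC libraries labelled replicate 2. *Hist2h3c1* is left out because its SE could not be estimated. Filled points lie above 0, from 0.45 for *Hist1h4d* to 1.07 for *Hist1h1b*.

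Members were also grouped by mean level, length of the annotated transcript, cluster and shared sequence. The mean level comes from the same libraries as the fold changes. The cluster follows from the symbol by which the members were chosen. Of 52 members with a mean over 10 CPM, 25 were higher and none had a negative fold change (range 0.06 to 1.07, median 0.60). The scaling by DESeq2 size factors turned only *Hist1h1c* among the named members. Of 5 members at 10 CPM or less, none was called and 4 were negative. Of 42 members whose longest annotated transcript spanned 1 kb or less 23 were higher (median 0.63), and of 15 with a longer transcript 2 were (median 0.39). Without the 2 libraries numbered 2 further members of both kinds were called. Those with a longer transcript were *Hist1h1d*, *Hist1h1e*, *Hist1h2ac*, *Hist2h3c2*, *Hist2h4*, *Hist3h2a* and *Hist4h4*. The chromosome 13 cluster held 24 of the 25, among 45 tested (median 0.61), and the chromosome 3 cluster 1 among 9 (median 0.60). Without the 2 libraries *Hist2h2aa1*, *Hist2h2ab*, *Hist2h3b*, *Hist2h3c2* and *Hist2h4* of the chromosome 3 cluster were also called, as were further members on chromosome 13. Members that share over 50% of their windows with a copy gave 10 of 25 (median 0.62) and the others 15 of 32 (median 0.46). Among the latter, members that share none gave 2 of 6 (median 0.39). Without the 2 libraries *Hist2h4* and *Hist4h4*, which share none, were called as well. These are descriptions, and the differences between the classes of members were not tested.

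Within each combination of agent and genotype fewer members passed, as did fewer genes overall. In *Apoe*-/-*Il27ra*+/- mice under Ang II, 5 of 57 members were higher in HPC-1 and 0 lower, where 7.26% of all genes were higher and 7.59% lower, and the median was 0.90. At an unadjusted p under 0.05 edgeR found 23 higher and 0 lower, DESeq2 called 14 higher and limma-voom 28 higher and 1 lower, and without the 2 libraries numbered 2 edgeR called 19 members among 1507 genes higher and 1512 lower of 17945. With all libraries 4944 of 18013 genes passed the unadjusted threshold in either direction. The 5 members called with all libraries were *Hist1h2an*, *Hist1h2ag*, *Hist1h2bf*, *Hist1h1a* and *Hist1h2bc*. *Hist1h2an* stood at 88.56, 39.62, 38.53 and 23.61 CPM in the 4 LT-HSC libraries and at 196.4, 181.9, 81.63 and 75.5 in the 4 HPC-1 libraries. Its LT-HSC replicate 1 lay above 2 of the HPC-1 libraries, and the log2 fold change was 1.51 (SE 0.484, edgeR adjusted p = 0.0355). *Hist1h1a* stood at 224.7, 138.7, 281.0 and 141.9 CPM in LT-HSC and at 515.1, 498.2, 305.2 and 373.6 in HPC-1, with no overlap and a log2 fold change of 1.10 (SE 0.372, edgeR adjusted p = 0.0454). The count of 5 moved with single libraries: it was 9 without LT-HSC PBS *Apoe*-/-*Il27ra*-/- replicate 2, 8 without LT-HSC Ang II *Apoe*-/-*Il27ra*+/- replicate 1, 0 without its replicate 2, 3 without its replicate 3, 0 without its replicate 4, 11 without LT-HSC Ang II *Apoe*-/-*Il27ra*-/- replicate 2, 0 without HPC-1 Ang II *Apoe*-/-*Il27ra*+/- replicate 1 and 1 without its replicate 2. Without HPC-1 Ang II *Apoe*-/-*Il27ra*+/- replicate 4, 1 member was lower.

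In the other 4 combinations edgeR called 0 members in either direction. Under PBS in *Apoe*-/-*Il27ra*+/- mice 3.84% of genes were higher and 3.84% lower, 6 members were higher at an unadjusted p under 0.05, the median was 0.44, and DESeq2 called 0 members and limma-voom 9 higher. Among all 18013 genes 3966 passed the unadjusted threshold in either direction. Without the 2 libraries numbered 2 edgeR called 3 members higher, among 962 genes higher and 908 lower. Under PBS in *Apoe*-/-*Il27ra*-/- mice 0.00555% of genes were higher and 0.877% lower, 0 members passed at an unadjusted p under 0.05, the median was 0.29, and DESeq2 called 0 and limma-voom 1 higher. In this combination 1948 of 18013 genes passed the unadjusted threshold. There the LT-HSC group holds the library with HPC-1 values of the gate genes, and without LT-HSC PBS *Apoe*-/-*Il27ra*-/- replicate 2 edgeR called 1 member, and without both libraries 2, with a median of 0.94, among 594 genes higher and 820 lower. Under Ang II in *Apoe*-/- mice 5.0% of genes were higher and 5.37% lower, 3 members were higher at an unadjusted p under 0.05, the median was 0.41, and DESeq2 and limma-voom called 0. The unadjusted threshold was passed by 4609 of 18013 genes in either direction. Without both libraries edgeR called 2 members higher, among 1165 genes higher and 1130 lower, and without LT-HSC Ang II *Apoe*-/-*Il27ra*-/- replicate 2 alone 1, although neither belongs to these groups. Under Ang II in *Apoe*-/-*Il27ra*-/- mice 5.48% of genes were higher and 7.04% lower, 8 members were higher at an unadjusted p under 0.05, the median was 0.59, DESeq2 called 0, and limma-voom 24 higher and 1 lower. Here 4597 of 18013 genes passed the unadjusted threshold in either direction. Without both libraries edgeR called 25 of 57 members higher there with a median of 1.15, among 1576 genes higher and 1497 lower of 17945, and without LT-HSC Ang II *Apoe*-/-*Il27ra*-/- replicate 2 alone 18. Over all alternatives the median ran from −0.04 to 0.89 in *Apoe*-/-*Il27ra*+/- and from −0.15 to 1.23 in *Apoe*-/-*Il27ra*-/- under PBS, and under Ang II from 0.22 to 0.83 in *Apoe*-/-, 0.74 to 1.08 in *Apoe*-/-*Il27ra*+/- and 0.18 to 1.15 in *Apoe*-/-*Il27ra*-/-. The combinations share no libraries, but differences between them in the number of members called were not tested.

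Some genes of histone mRNA synthesis and processing were higher in HPC-1. Of 15 factors tested 7 were higher in HPC-1 and 0 lower by edgeR over the 5 combinations, with a median log2 fold change of 0.21. At an unadjusted p under 0.05 it found 8 higher and 1 lower, DESeq2 called 7 higher and 1 lower, and limma-voom 10 higher and none lower. *Slbp*, whose product binds the stem-loop, had means of 84.59 CPM in LT-HSC and 127.6 in HPC-1, with a log2 fold change of 0.55 (SE 0.0956, edgeR adjusted p = 1.19e-05). *Casp8ap2*, a component of histone locus bodies, was higher by 0.60, and the cleavage factor genes *Cpsf3*, *Cpsf2* and *Cstf2* by 0.51, 0.43 and 0.56. The cap-binding partners *Srrt* and *Ncbp1* were higher by 0.45 and 0.41. *Npat*, the coactivator of histone gene transcription, had a log2 fold change of 0.15 (SE 0.103, edgeR adjusted p = 0.286), and *Hinfp*, a transcription factor of H4 genes, one of −0.12 (SE 0.177, edgeR adjusted p = 0.737), which turned to 0.05 with limma-voom. *Zfp473*, a zinc finger protein of the processing complex, had −0.81 (SE 0.374, edgeR adjusted p = 0.0882).

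Of 8 histone chaperone genes edgeR, DESeq2 and limma-voom called 5, 5 and 6 higher and none lower, with an edgeR median of 0.46. *Nasp*, which holds the pool of soluble H3 and H4, had means of 114.9 CPM in LT-HSC and 257.3 in HPC-1 and a log2 fold change of 1.09 (SE 0.152, edgeR adjusted p = 1.41e-06). *Hat1*, which acetylates new H4, was higher by 0.88, *Chaf1a*, the large subunit of the assembly factor CAF-1, by 0.77, and *Rbbp4* and *Rbbp7* by 0.47 and 0.45, while *Chaf1b* had −0.03 (edgeR adjusted p = 0.920, SE 0.0878). The summed level of the 8 ran from 578.9 to 1036 CPM in LT-HSC, or to 882.0 without the 2 libraries numbered 2, and from 802.8 to 1400 in HPC-1. Replacement histone genes, whose mRNAs mostly carry a poly(A) tail and are made outside S phase too, moved in both directions. Of 11, 8 were higher and 3 lower, with a median of 0.67. *H2afy*, which encodes macroH2A1, had means of 459.5 CPM in LT-HSC and 1968 in HPC-1 and a log2 fold change of 2.19 (SE 0.194, edgeR adjusted p = 2.22e-09). *H2afx* was higher by 0.82, *H2afz* by 0.67, *H3f3a* by 0.52 and *Cenpa*, the histone H3 of centromeres, by 0.94. The linker histone genes of this list went the other way: *H1f0* had means of 111.4 and 40.4 CPM and a log2 fold change of −1.45 (SE 0.109, edgeR adjusted p = 1.37e-12), and *H1fx* one of −1.16. *H3f3b* encodes the same protein as *H3f3a* and was lower (−0.43, SE 0.0943, edgeR adjusted p = 0.00031).

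Genes of the cell cycle were higher in HPC-1 in nearly every case. Of 25 S phase genes 24 were higher and none lower (median 0.78), all but *E2f2* (0.27, SE 0.279, edgeR adjusted p = 0.543), and DESeq2 called 23 and limma-voom 25 higher. *Tyms* (0.37, SE 0.139, edgeR adjusted p = 0.0357) lost the call in 25 of 47 alternatives and *Ccne1* (0.73, SE 0.262, edgeR adjusted p = 0.0254) in 6. Of 12 genes of G2 and mitosis 12 were higher by each tool (edgeR median 0.90). The S phase list summed to between 1790 and 4213 CPM in LT-HSC (median 2435, and at most 3200 without the 2 libraries numbered 2) and to between 2796 and 5553 in HPC-1 (median 4499). The G2 and mitosis list summed to between 1492 and 4794 CPM in LT-HSC (median 2092, and at most 2943 without the 2) and to between 2801 and 6327 in HPC-1 (median 4432). The LT-HSC library labelled Ang II *Apoe*-/-*Il27ra*-/- replicate 2 gave the highest LT-HSC value of *Mki67*, a gene of that list, 2850 CPM, against 856 to 1790 in the 15 others. The 8 LT-HSC markers were all lower (median −3.02), the 7 multipotent progenitor markers all higher (3.70) and the 5 megakaryocyte markers all lower (−4.65). Of the 4 gate genes 1, *Cd48*, was higher and 3 lower, of 7 erythroid markers 4 were lower (−2.50), of 7 granulocyte markers 2 were higher and 1 lower (−1.69), and of 4 eosinophil and mast cell markers 2 were higher (0.90). The granulocyte median was the value of *S100a8*. Its SE could not be estimated, nor those of *Ngp*, *Ltf*, *Camp*, *Prg2* and *Epx*. *S100a9*, the granulocyte marker called lower, had a mean of 152.0 CPM in LT-HSC and a highest value of 2180. The part of any of these cell types in the difference of the members was not tested.

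Most members carry the stem-loop that stands in for a poly(A) tail. Searched on the sense strand of the annotated transcripts, the histone stem-loop was present in 44 of 67 annotated members (65.67%). In the last 100 bases it was present in 22 of 72 member transcripts (30.56%) and in 23 of 58797 protein-coding transcripts in all (0.039%). In 12 members the annotated transcript runs over 500 bases past the stem-loop. Members without a match include short annotated transcripts, such as 312 bases for *Hist1h4k*, 381 for *Hist1h2bn* and 393 for *Hist1h2ak*. They also include longer ones, such as 2620 bases for *Hist2h2be*. Whether these transcripts reach the end of the mRNA was not tested. A missing match therefore does not show that a gene lacks the stem-loop. Sequences of 1 or 2 genes of each class are shown because the loop is the processing signal of these mRNAs. Capitals mark the stem-loop, lower case the flanking bases, read from GENCODE vM21 transcripts of GRCm38.
Hist1h1c (H1): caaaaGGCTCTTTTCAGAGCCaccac
Hist2h2aa1 (H2A): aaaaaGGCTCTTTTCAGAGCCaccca
Hist1h2bf (H2B): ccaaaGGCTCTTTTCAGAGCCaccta
Hist1h3c (H3): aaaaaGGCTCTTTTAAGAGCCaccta
Hist1h4h (H4): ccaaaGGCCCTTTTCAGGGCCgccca
Hist1h4j (H4): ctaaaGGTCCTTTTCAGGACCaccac
The stem was the same in the H1, H2A, H2B and H3 genes shown and differed in the H4 genes, in both arms at once. *Hist1h3c* and *Hist1h4j* were chosen after the sequences were seen.

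Promoters were taken from RefSeq (GRCm38.p6), from 250 bases before to 50 bases after each start, and 63 promoters of 62 members were matched. CCAAT, searched on both strands together with its reverse complement ATTGG, was present in 85.71% of member promoters and in 37.41% of all 32851 promoters. It was present in all 6 H1, 18 H2A, 17 H2B and 10 H3 promoters and in 3 of 12 H4 promoters. TATAAA, on both strands, was present in 55.56% of member promoters and 13.62% of all. AAACACA, a motif described in H1 promoters and searched on both strands, was present in 5 of 6 H1 promoters, not in that of *Hist1h1a*, and in 7.18% of all. The 120 bases before the start are shown for a member of each of 4 classes that was higher in HPC-1, with matches in capitals. The coordinates, on the minus strand, are chr13:21780626-21780745, chr13:21787249-21787368, chr13:23574208-23574327 and chr13:21750554-21750673.
Hist1h1b: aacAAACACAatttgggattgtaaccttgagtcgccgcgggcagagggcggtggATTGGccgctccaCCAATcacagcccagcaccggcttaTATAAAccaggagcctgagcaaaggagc
Hist1h2an: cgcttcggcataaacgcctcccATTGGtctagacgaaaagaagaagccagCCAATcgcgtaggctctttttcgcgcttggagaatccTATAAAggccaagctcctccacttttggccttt
Hist1h2bf: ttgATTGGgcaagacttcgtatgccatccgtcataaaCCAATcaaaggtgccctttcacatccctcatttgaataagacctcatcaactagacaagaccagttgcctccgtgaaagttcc
Hist1h4k: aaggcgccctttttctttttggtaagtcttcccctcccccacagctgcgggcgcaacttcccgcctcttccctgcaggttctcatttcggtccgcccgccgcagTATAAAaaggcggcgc
The first 3 hold CCAAT in both orientations, and that of *Hist1h4k* holds TATAAA and no CCAAT. A match is a description of the letters and not of a bound site.

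Whether Ang II changes the members was asked in each cell type and genotype with at least 2 libraries per agent. In none of the 5 comparisons did the main edgeR fit call any gene, so that 0% of all genes and 0 members passed. DESeq2 and limma-voom also called 0 members in each. With the replicate block edgeR called 5 genes higher and 2 lower of 13199 in *Apoe*-/-*Il27ra*+/- HPC-1. It called 1 gene higher in *Apoe*-/-*Il27ra*-/- HPC-1, and 0 members in either. In *Apoe*-/-*Il27ra*+/- LT-HSC the summed level stood at 13000, 6189 and 6270 CPM under PBS and at 8398, 4868, 7800 and 4645 under Ang II, and the groups overlapped. The median log2 fold change was −0.51 over 56 members and −0.04 over all genes, with 2 positive and 54 negative values. Over 22 alternatives this median ran from −0.75 to −0.11, the latter without LT-HSC PBS *Apoe*-/-*Il27ra*+/- replicate 1, the library at 13000 CPM. At an unadjusted p under 0.05 edgeR found 1 higher, *Hist2h2aa2*, and 1 lower, *Hist1h1t*, both named after their values were seen. That threshold was passed by 806 of 16365 genes. In *Apoe*-/-*Il27ra*-/- LT-HSC the summed level stood at 4002, 13760 and 6947 CPM under PBS and at 4103, 14070, 6164 and 4526 under Ang II, the second value of each being the libraries numbered 2. The median was −0.35 (9 positive and 47 negative), −0.18 without both libraries and 0.35 without LT-HSC PBS *Apoe*-/-*Il27ra*-/- replicate 2 alone, with 0 members at an unadjusted p under 0.05 by edgeR. Leaving out that 1 library turned the sign of the median, which ran from −0.84 to 1.16 over 20 alternatives. With all libraries 150 of 16365 genes passed the unadjusted threshold in these mice.

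In HPC-1 the members lay close to 0 on the log2 scale. Summed levels were 11130 and 11820 CPM under PBS and 9272, 11830 and 9485 under Ang II in *Apoe*-/- mice, 12260, 10500 and 14530 against 15280, 14630, 8431 and 10790 in *Apoe*-/-*Il27ra*+/- mice, and 7894, 9583 and 13790 against 8296, 11100, 10710 and 11990 in *Apoe*-/-*Il27ra*-/- mice. In each genotype the agents overlapped. The medians of 55 members were −0.10, −0.09 and −0.02 in that order (over the alternatives −0.30 to −0.01, −0.22 to 0.13 and −0.23 to 0.26), and at an unadjusted p under 0.05 edgeR found 0 members in each. Of all 13199 genes 420, 519 and 244 passed that threshold. *Hist1h1b*, for instance, stood at 279.4, 226.2 and 462.0 CPM under PBS and at 463.2, 389.2, 160.7 and 305.9 under Ang II in *Apoe*-/-*Il27ra*+/- mice. The spread between replicates of a group was larger than the shift between agents for this gene. The PBS group of *Apoe*-/- LT-HSC held 1 library, at 6632 CPM, and was not compared with the 2 under Ang II, at 6436 and 9513 CPM.

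Whether the number of *Il27ra* alleles changes the members was asked within each cell type and agent, and edgeR, DESeq2 and limma-voom each called 0 members in all 10 comparisons. The PBS group of *Apoe*-/- LT-HSC, with its 1 library, was in none of them. In LT-HSC under Ang II, *Apoe*-/-*Il27ra*-/- against *Apoe*-/- gave 1.13% of genes higher and 0.562% lower. Without the 2 libraries numbered 2 it gave 415 genes higher and 298 lower of 16205. With the replicate block it gave 63 higher and 34 lower of 16365. The summed member levels were 6436 and 9513 CPM for *Apoe*-/-, against 4103, 14070, 6164 and 4526 for *Apoe*-/-*Il27ra*-/-, and at an unadjusted p under 0.05 edgeR found 1 member higher, *Hist3h2ba* (log2 fold change 3.01, adjusted p = 0.169, SE 1.13), named after its value was seen. In this comparison 2896 of 16365 genes passed the unadjusted threshold in either direction. The median of the members was −0.08, −0.57 without the 2 libraries and 0.17 with the replicate block, and ran up to 0.37 over 19 alternatives. *Apoe*-/-*Il27ra*+/- against *Apoe*-/- gave 0.611% of genes higher and 0.220% lower, 0 members at an unadjusted p under 0.05 by edgeR, and a median of −0.21, which the replicate block turned to 0.12 and which ran from −0.37 to 0.20 over 20 alternatives. Without the 2 libraries 237 genes were higher and 120 lower, and with the block 28 and 11. With all libraries 2563 of 16365 genes passed the unadjusted threshold. *Apoe*-/-*Il27ra*-/- against *Apoe*-/-*Il27ra*+/- gave 0% of genes and 0 members at an unadjusted p under 0.05 by edgeR, with a median of 0.18, −0.34 without the 2 libraries and −0.35 to 0.47 over 22 alternatives. The unadjusted threshold was passed by 426 of 16365 genes. *Hist1h1b* stood at 67.85 and 203.5 CPM for *Apoe*-/-, 144.1, 79.61, 154.7 and 79.18 for *Apoe*-/-*Il27ra*+/-, and 56.52, 355.8, 118.6 and 74.42 for *Apoe*-/-*Il27ra*-/-, so that all 3 groups overlapped. In the comparisons with *Apoe*-/-, 10 of 18 intestinal markers were lower in *Apoe*-/-*Il27ra*-/- and 9 of 18 in *Apoe*-/-*Il27ra*+/-.

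In LT-HSC under PBS, *Apoe*-/-*Il27ra*-/- against *Apoe*-/-*Il27ra*+/- gave 0% of genes, and at an unadjusted p under 0.05 edgeR found 1 member higher, *Hist2h2aa2*. That threshold was passed by 653 of 16365 genes. The median of the members was −0.06 with all libraries, −0.67 without the 2 numbered 2 and −1.36 to 0.40 over 20 alternatives. In HPC-1 under Ang II, *Apoe*-/-*Il27ra*-/- against *Apoe*-/- gave 0% of genes, *Apoe*-/-*Il27ra*-/- against *Apoe*-/-*Il27ra*+/- 0% and *Apoe*-/-*Il27ra*+/- against *Apoe*-/- 0%, with medians of 0.10 (−0.15 to 0.29 over the alternatives), −0.07 (−0.39 to 0) and 0.23 (0.06 to 0.39). At an unadjusted p under 0.05 edgeR found 0 members in the first, 2 lower in the second, *Hist1h2bc* and *Hist2h2ac*, and 1 higher in the third, *Hist1h1c*. Of all 13199 genes 661, 375 and 975 passed that threshold, in the same order. *Hist1h2bc* stood at 249.6, 225.1, 168.0 and 173.1 CPM for *Apoe*-/-*Il27ra*+/-, against 129.6, 126.2, 160.1 and 184.3 for *Apoe*-/-*Il27ra*-/-, with 1 *Apoe*-/-*Il27ra*-/- library inside the *Apoe*-/-*Il27ra*+/- range. In HPC-1 under PBS, *Apoe*-/-*Il27ra*-/- against *Apoe*-/- gave 0% of genes higher and 0.0152% lower, *Apoe*-/-*Il27ra*-/- against *Apoe*-/-*Il27ra*+/- 0% and *Apoe*-/-*Il27ra*+/- against *Apoe*-/- 0%, with medians of 0.01 (−0.33 to 0.22), −0.20 (−0.52 to 0.05) and 0.19 (0 to 0.36) and 0 members at an unadjusted p under 0.05 by edgeR in each. Of all 13199 genes 865, 151 and 631 passed the unadjusted threshold, in the same order. With the replicate block edgeR called 1 gene higher and 6 lower in the first and 2 lower in the third, and 0 members. Comparisons within a cell type and agent share groups, so that their values are not independent.

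Whether the effect of Ang II differs was tested directly. Between *Apoe*-/-*Il27ra*-/- and *Apoe*-/-*Il27ra*+/- mice it differed for 0% of genes among LT-HSC and 0% among HPC-1, and edgeR, DESeq2 and limma-voom called 0 members in each. At an unadjusted p under 0.05 edgeR found 1 member lower in LT-HSC, *Hist2h2aa2*, and 0 in HPC-1, and the medians were 0.21 (−0.30 to 1.89 over 27 alternatives) and 0.07 (−0.12 to 0.40 over 29). That threshold was passed by 414 of 16365 genes in LT-HSC and 169 of 13199 in HPC-1. Between HPC-1 and LT-HSC, over the mean of *Apoe*-/-*Il27ra*+/- and *Apoe*-/-*Il27ra*-/-, it differed for 0% of genes, with 0 members called by any of the 3 tools and 0 at an unadjusted p under 0.05. The unadjusted threshold was passed by 511 of 18013 genes. The median of the members was 0.37, with 51 positive and 6 negative values, and 0.30 without the 2 libraries numbered 2. Over 41 alternatives it ran from −0.07, in libraries under 4 M counts, to 0.59.

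The share of each class in the member level is given apart for libraries with Y-linked genes counted (9 LT-HSC and 15 HPC-1) and with these at or near 0 (8 and 4). In the former H1 took a mean of 27.88% in LT-HSC and 25.82% in HPC-1, H2A 43.66% and 44.55%, H2B 11.3% and 12.38%, H3 5.823% and 6.288%, and H4 11.33% and 10.97%. In the latter H1 took 29.13% and 25.2%, H2A 34.78% and 35.73%, H2B 12.71% and 13.84%, H3 10.21% and 11.49%, and H4 13.18% and 13.74%. Differences in share between the cell types were not tested. Within each cell type the shares of H3 and H2A parted with the Y-linked genes. H3 took 3.54% to 7.541% in the 24 libraries in which these were counted and 9.134% to 11.89% in the 12 in which they were at or near 0, with no overlap. H2A took 39.02% to 47.96% and 33.27% to 36.67%, also with no overlap, and the shares of H1, H2B and H4 overlapped, except that H4 parted in HPC-1 (8.463% to 12.73% and 13.48% to 13.92%). The division held within each cell type: in LT-HSC H3 took 3.708% to 6.897% in 9 libraries and 9.134% to 11.58% in 8, and in HPC-1 3.54% to 7.541% in 15 and 11.01% to 11.89% in 4. Most members overlapped, and 1 of 7 H3 and 3 of 18 H2A members parted. How many of all genes part in this way was not tested. *Hist1h3b*, the H3 gene, took a median of 1.59% of the member level in the 24 and 2.79% in the 12, with no overlap. *Hist2h2aa1* took 9.11% to 15.5% in the 24 and 5.44% to 7.55% in the 12. *Hist2h2ac* took 2.42% to 4.93% and 1.46% to 2.26%, and *Hist1h2af*, named after its values were seen, 3.3% to 5.07% and 1.94% to 3.08%. The summed level itself overlapped, at 4002 to 14070 CPM and 4526 to 13760 in LT-HSC and at 7894 to 15280 and 10790 to 14530 in HPC-1. This division was noticed in the data and was not tested, and the 12 libraries also held more counts on the whole, with overlap.

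**Figure D3:**
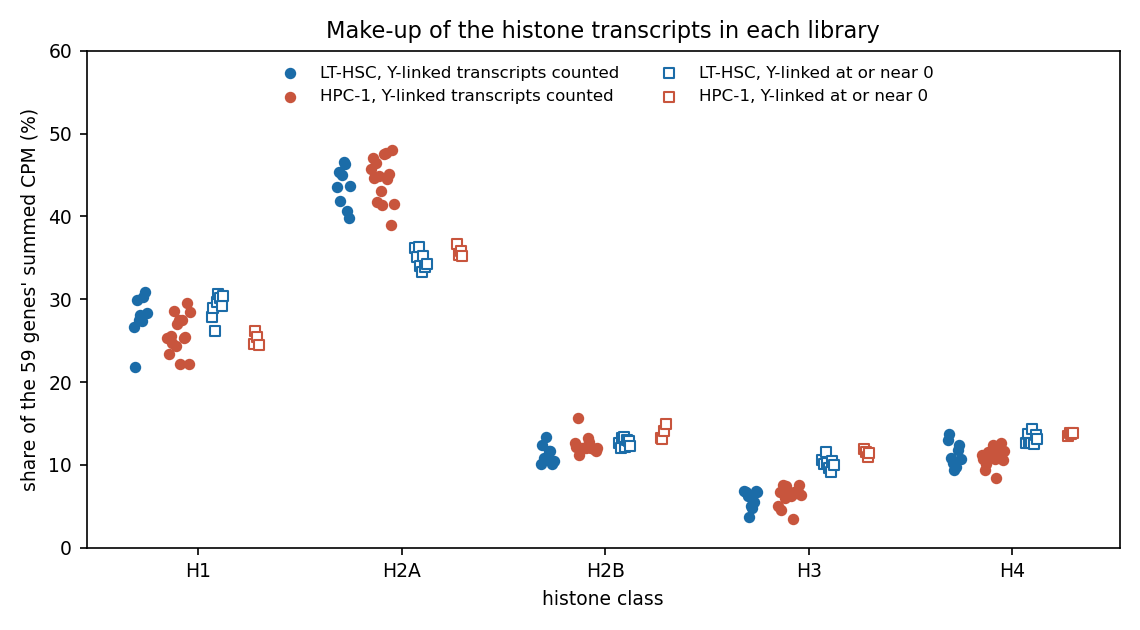
Share of each class in the summed member level of each library, in percent (vertical axis), by class and cell type (horizontal axis), with filled circles for the 24 libraries in which Y-linked genes were counted and hollow squares for the 12 in which they were at or near 0. The H3 shares of the 12 (9.134% to 11.89%) lie above those of the 24 (3.54% to 7.541%), and their H2A shares (33.27% to 36.67%) lie below (39.02% to 47.96%).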

How the data were processed

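The authors deposited expected counts per gene for 36 libraries, estimated with RSEM (version 1.2.31 with Bowtie2 in the deposited notes, while the study's methods name STAR and another RSEM version), against mm10. The Ensembl release is not stated. All values were whole (0 were not) and without normalization, for 38887 genes, 37570 of which matched GENCODE vM21. Levels are TMM-normalized CPM. Groups were taken from the deposited titles. Each comparison was fitted in edgeR 4.0.16 (quasi-likelihood, filterByExpr, R 4.3.3) on 18013 genes for both cell types, 16365 for LT-HSC and 13199 for HPC-1, with the SE taken as the size of the log2 fold change over the square root of F. Alternatives were DESeq2 1.42.0, limma-voom 3.58.1, other normalizations and filters (none, or a mean of 10 counts), a replicate block, a Y-linked covariate, only the groups compared, libraries under 4 M counts and leaving out each replicate. Leaving out both LT-HSC libraries numbered 2 of *Apoe*-/-*Il27ra*-/-, or every *Apoe*-/- library, was added after seeing the data. The test was checked on simulated data.

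The members and the lists were chosen with earlier results of these data known. The lists were histone mRNA factors, histone chaperones, replacement histones, S phase, G2 and mitosis, gate, LT-HSC markers, multipotent progenitor markers, megakaryocyte, erythroid and granulocyte markers, eosinophil and mast cell markers, B lymphoid markers, intestinal epithelium markers, and Y-linked genes. Genes were named by rule: the 3 members of each class with the highest CPM per kb, the members of smallest adjusted p, up to 10 a direction in the comparison of cell types and up to 5 in any other, and any gene of the lists. Other members named were chosen after their values were seen. The depth of 1980283 to 6861078 counts a library limits precision for members of few counts.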

Additional observations from a re-analysis of the deposited data

Results flagged for a closer look

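In each of the 4 groups of 4 libraries, 116 sets of values in all, a library was picked out when its gap to the nearest other library took up most of the group's range (Dixon's test). Chance picks out about 1 in 20 sets, and 10 were picked out. In the library labelled LT-HSC Ang II *Apoe*-/-*Il27ra*-/- replicate 2, which stood apart in its markers, the summed level of H2A was 6154 CPM against 1549 to 2087 in the other 3. The same library held 1309 CPM of the linker histone gene *Hist1h1e* (others 319.0 to 458.8) and, among H2A genes, 312.3 of *Hist1h2ag* (108.3 to 130.8), 120.2 of *Hist1h2an* (27.71 to 35.73), 835.3 of *Hist1h2ao* (167.7 to 256.6), 1607 of *Hist2h2aa1* (246.4 to 462.1) and 420.9 of *Hist2h2ac* (77.17 to 107.1). In LT-HSC Ang II *Apoe*-/-*Il27ra*+/- replicate 1, *Hist2h2aa1* stood at 1153 CPM against 313.9 to 450.8. In HPC-1 Ang II *Apoe*-/-*Il27ra*-/-, *Hist1h1a* stood at 468.2 CPM in replicate 3 (others 389.1 to 394.2) and *Hist1h4h* at 273.5 in replicate 4 (others 151.2 to 165.6). No cause of these values was tested.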

How the results depend on the processing

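The higher level of members in HPC-1 held in direction under each alternative run: over the 5 combinations the number called higher was 22 with upper-quartile normalization, 19 with DESeq2 size factors, 27 with DESeq2, 35 with limma-voom, 27 with a mean of at least 10 counts, 26 with the replicate block, 23 with only the groups compared, 25 with library sizes over other genes, 31 with the Y-linked covariate, 17 in libraries under 4 M counts and 25 over 6 combinations. Without *Apoe*-/- libraries it was 25 of 55 tested over the 4 combinations left. It was 44 with no filter and 42 without both LT-HSC libraries numbered 2, and leaving out 1 library gave 13 to 35. The number lower was 1 with DESeq2, with limma-voom and without *Apoe*-/- libraries, and 0 to 1 with 1 library left out. Among all genes edgeR called 3304 higher and 2937 lower of 18013 with the replicate block. Without both LT-HSC libraries numbered 2 these were 3522 and 3350 of 17945, and without *Apoe*-/- libraries 3174 and 3294 of 13911. For the other alternatives over the 5 combinations counts of all genes are not given. The cause of the changes in the number of members called was not tested, here or in the counts that follow.

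Within combinations, *Apoe*-/-*Il27ra*+/- under PBS gave 9 higher with limma-voom, 16 with no filter, 2 with the replicate block, 7 with only the groups compared, 1 with the Y-linked covariate and 3 without both libraries. *Apoe*-/-*Il27ra*-/- under PBS gave 1 with limma-voom, 1 with no filter, 1 under 4 M counts, 2 without both, and 0 to 1 with 1 library left out. *Apoe*-/- under Ang II gave 12 with no filter, 1 with the block, 2 with only the groups compared, 1 under 4 M counts, 2 without both, and 0 to 1 with 1 left out. *Apoe*-/-*Il27ra*+/- under Ang II gave 14 with DESeq2, 28 with limma-voom (and 1 lower), 43 with no filter, 9 with a mean of 10 counts, 11 with the block, 20 with only the groups compared, 8 with the covariate, 1 under 4 M counts, 19 without both, 8 without *Apoe*-/- libraries, and 0 to 11 higher and 0 to 1 lower with 1 left out. *Apoe*-/-*Il27ra*-/- under Ang II gave 24 with limma-voom (and 1 lower), 26 with no filter, 5 with the block, 25 without both, and 0 to 18 with 1 left out. With the block, genes higher and lower among all 18013 were 861 and 840 in *Apoe*-/-*Il27ra*+/- and 44 and 185 in *Apoe*-/-*Il27ra*-/- under PBS. Under Ang II they were 557 and 532 in *Apoe*-/-, 1392 and 1527 in *Apoe*-/-*Il27ra*+/-, and 1235 and 1360 in *Apoe*-/-*Il27ra*-/-.

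With no filter, Ang II against PBS gave 4 lower in *Apoe*-/-*Il27ra*+/- LT-HSC, *Apoe*-/-*Il27ra*-/- against *Apoe*-/- and *Apoe*-/-*Il27ra*+/- against *Apoe*-/- in LT-HSC under Ang II each 1 higher and 1 lower, *Apoe*-/-*Il27ra*-/- against *Apoe*-/-*Il27ra*+/- in LT-HSC under PBS 1 higher, and the difference of the Ang II effect in LT-HSC 1 lower. Under 4 M counts, Ang II against PBS gave 1 higher in *Apoe*-/-*Il27ra*-/- LT-HSC, *Apoe*-/-*Il27ra*-/- against *Apoe*-/-*Il27ra*+/- under PBS 1 lower, and the difference of the effect 1 higher. Fold changes that changed sign were that of *Hist1h1c*, −0.01 with DESeq2 size factors and with DESeq2 (−0.05 to 0.14 with 1 library left out), that of *Hinfp*, 0.05 with limma-voom and 0.01 with the block (−0.26 to 0.17), and that of *Sympk*, a cleavage factor scaffold (−0.03 to 0.10). Of the fold changes of named genes, 4307 kept direction and side of the threshold, 132 lost and 83 gained a call, and 11 changed sign. The most lost calls among named members were those of *Hist1h2ab* (18 of 47), *Hist1h4d* (17) and *Hist1h4h* (12), against 25 for the S phase gene *Tyms*, and the most gained those of *Hist1h2bn* and *Hist2h3b* (13 each). Of 18 comparisons of agent, genotype or their difference, the median of the members changed sign in 13, each under 1 to 6 alternatives, and of 6 comparisons of cell types in 2, both under PBS. Of the medians 544 moved by less than their spread and 15 by more.

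Replicate numbers were not treated as pairs: the correlation of residuals exceeded 0.1 in 7 of 41 pairs of HPC-1 libraries, 8 of 27 of LT-HSC and 7 of 16 across cell types. For PBS replicate 2 and Ang II replicate 3 of *Apoe*-/-*Il27ra*+/- and *Apoe*-/-*Il27ra*-/-, Y-linked genes were counted in HPC-1 but not in LT-HSC. The other numbers present in both cell types agreed. Equal numbers therefore do not always mark the same mice, which also limits a block by replicate. With 1 to 4 libraries a group and 25 libraries under 4 M counts, differences within a group of agent and genotype were estimated with large errors. Near copies of a gene share reads, 8 annotated members had no matched row, and the labels give no sex.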

Other observations

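The single PBS *Apoe*-/- LT-HSC library was in no comparison of agent or genotype. Its members summed to 6632 CPM, of which H1 made up 1766, H2A 2884, H2B 671.0, H3 451.5 and H4 859.7. It held 170.6 CPM of *Hist1h1a*, 103.6 of *Hist1h1b* and 750.9 of *Hist2h2aa1*. Besides *Hist1h2aj*, the histone pseudogenes *Hist1h2al* and *Hist3h2bb-ps* had rows, with means of 3.02 and 2.1 CPM over the 36 libraries.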
